A study of Mus musculus with 18 samples.

Results

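Leukemic mouse spleens collected 48 h after Acly was deleted in established T-cell acute lymphoblastic leukemia (T-ALL) were compared with spleens of vehicle-treated leukemic mice, by RNA sequencing. The genes described are all those with a mean of at least 10 normalized counts over the 8 acute libraries, 14184 of the 18329 genes of the table, and the 8 libraries are 8 of the 18 in the series. The mean was taken over both groups together, so a gene high in only 1 group can pass. Both groups held C57BL/6 leukemias with a conditional allele of Acly, carried by sublethally irradiated recipient mice after intravenous injection. Mice of the acute experiment were treated by intraperitoneal injection once they were overtly leukemic. The 4 libraries labelled Acly deleted (KO) came from mice given 3 mg of tamoxifen in corn oil, and the 4 control libraries (called WT in their titles) from mice given corn oil alone. Tamoxifen and the deletion therefore always came together and cannot be told apart. Information on the Cre driver, the exons removed, the age of the mice and the number of mice or of primary leukemias per group was not given in the sources used here. Per the series' design text there are 5 samples per genotype, while 4 acute libraries per group were analysed here. If replicates are not separate mice, the p-values measure a technical spread.

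ATP citrate lyase, the product of Acly, splits the citrate that mitochondria export into oxaloacetate and acetyl-CoA in the cytosol. That acetyl-CoA feeds the synthesis of fatty acids and of cholesterol and the acetylation of histones and other proteins, and another route makes it from acetate through the acetyl-CoA synthetase Acss2. T-ALL is a cancer of immature T cells, commonly driven by NOTCH1, with a high demand for glucose, nucleotides and protein synthesis.

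Normalized totals were 7.64 to 8.03 M in WT and 7.07 to 7.26 M in KO, so the mean KO total was 91.6% of WT. Summed levels of gene groups are read against that value. Estimated reads were 6.79 to 9.41 M in WT and 6.07 to 8.71 M in KO. The leading principal component, with 28.1% of the variance, placed all WT libraries (-40.4 to -29.05) apart from all KO libraries (22.7 to 67.1). All 12 T-ALL markers checked, such as Notch1, Ptcra and Tcf7, were detected in every library. Among T-cell receptor beta variable segments Trbv26 took 52.5% to 66.7% of the counts in 7 of the 8 libraries. In KO replicate 2 Trbv2 took 33.0% and Trbv26 32.8%. Trbv2 was also the second segment in WT replicate 2 (14.6%), where the other WT libraries had Trbv1. The share of counts from mitochondrially encoded genes was 3.5% to 3.69% in WT, 4.8% and 5.27% in KO replicates 1 and 2, and 2.35% and 2.7% in KO replicates 3 and 4. Calls for named genes that were lost without KO replicates 1 and 2 are therefore named as such.

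Acly itself checks the labels. In the order of replicates 1 to 4, used throughout, Acly had normalized counts of 1422, 1129, 1231 and 1241 in WT and 793, 804, 717 and 619.6 in KO. All 4 KO libraries lay below all 4 WT libraries, and the KO mean was 58.4% of WT. The difference in mean log2(normalized count + 1), called the log2 fold change below, was -0.78 (SE 0.13, limma adjusted p = 0.00266), from a limma fit over all 14184 genes with Benjamini-Hochberg adjustment. The exact two-sided permutation p over the 70 splits of 8 libraries was 0.0286, the smallest that 4 against 4 allows. The call held under each of the 20 alternative settings tried. No stretch of 31 bases in the Acly transcripts is shared with a transcript of another gene, so reads of other genes do not enter its count through such stretches. How much of the remaining Acly RNA belongs to host cells and how much to leukemia cells cannot be told apart in these libraries. In spleen tissue fewer cells of a type and less RNA per cell cannot be told apart.

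Acly lies on chromosome 11 (GRCm38, 100476353 to 100528000, minus strand). Of the 19 other measured genes within 500 kb of it, 3 fell and none rose (15.8% lower, against 8.07% lower and 4.58% higher over all genes tested). Unadjusted limma p was under 0.05 for 6 of the 19, against 3984 of the 14184 genes tested, a similar share. Klhl11, a neighbour that encodes a ubiquitin ligase adaptor, was at 304, 337, 394 and 394 in WT and 230.3, 231, 245 and 265 in KO, with no overlap and a log2 fold change of -0.55 (SE 0.16, limma adjusted p = 0.0392). Stat5a, a transcription factor of cytokine signalling, was at 526, 643, 591 and 579 in WT and 435, 451, 451 and 362 in KO, also with no overlap, and fell by 0.46 on the log2 scale (SE 0.14, limma adjusted p = 0.0461). The processed pseudogene Gm10039 was at 51.1, 27.9, 52.7 and 92.6 in WT and 12.8, 0, 31 and 0 in KO, so that 2 KO libraries were listed at 0 and the groups overlapped through KO replicate 3 (limma adjusted p = 0.0352). Leaving out 1 library ended the call for Klhl11 in 6 of 8 fits (all but without WT replicate 1 or KO replicate 4), for Stat5a in 7 (all but without WT replicate 1) and for Gm10039 in 6 (all but without KO replicate 1 or 3). Without KO replicates 1 and 2 none of the 3 was called in limma. Stat5b at -0.13 (adjusted p = 0.63), Stat3 at 0.21 (0.369) and Kat2a, a histone acetyltransferase, at -0.11 (0.733) did not pass limma's threshold.

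**Figure D1:**
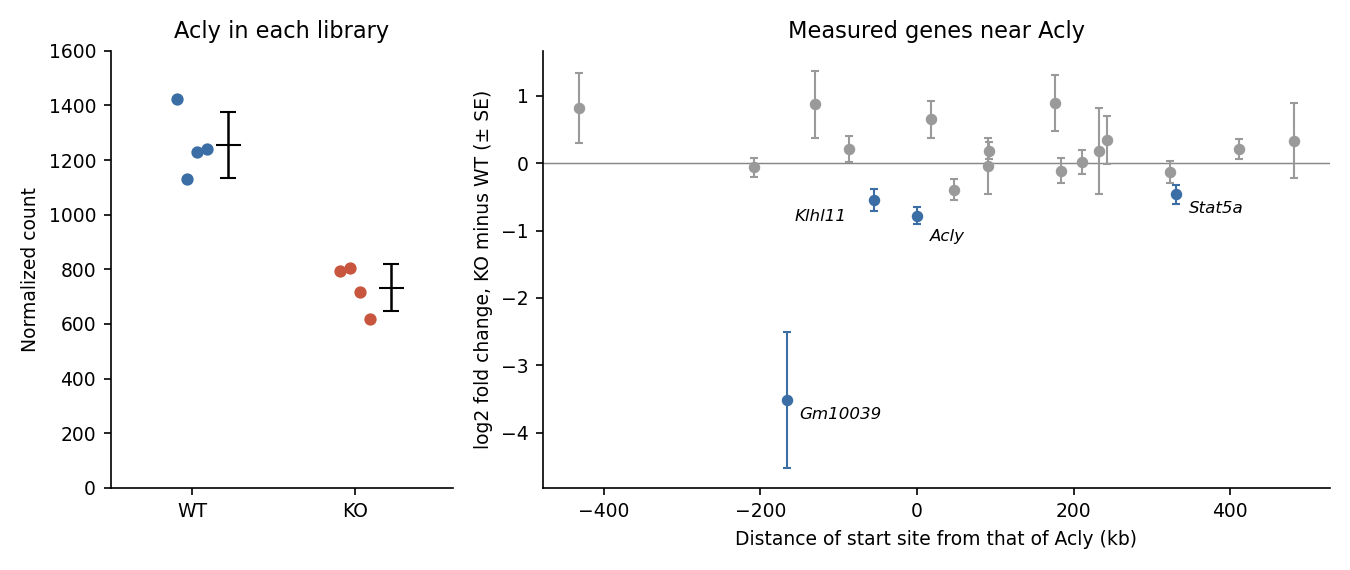
Left, normalized counts of Acly in each library (points) with mean ± SD beside them: the KO libraries lie between 619.6 and 804 and the WT libraries between 1129 and 1422. Right, log2 fold change (KO minus WT, ± SE) of the measured genes within 500 kb, by the distance of their start site from that of Acly in kb, with genes that passed the test in blue and labelled.

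Over all genes 1794 of 14184 (12.6%) passed the threshold of adjusted p under 0.05, with 650 (4.58%) higher and 1144 (8.07%) lower in KO. At least a 2-fold change was seen for 224 called genes (1.58%) upward and 211 (1.49%) downward. Groups did not overlap for 1141 genes (8.04%) higher and 1554 (11%) lower in KO. The median log2 fold change of all genes was 0.03. These shares are the background for the gene lists below, which get no test of their own and are read by their counts and medians. Across the 20 alternatives 105 higher and 295 lower calls held in every fit. Counts depended most on WT replicates 2 and 4 (1179 and 983 calls without each, 413 and 335 of them higher), on KO replicate 2 (409 higher calls without it) and on KO replicates 1 and 2 together (903 calls without both).

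**Figure D2:**
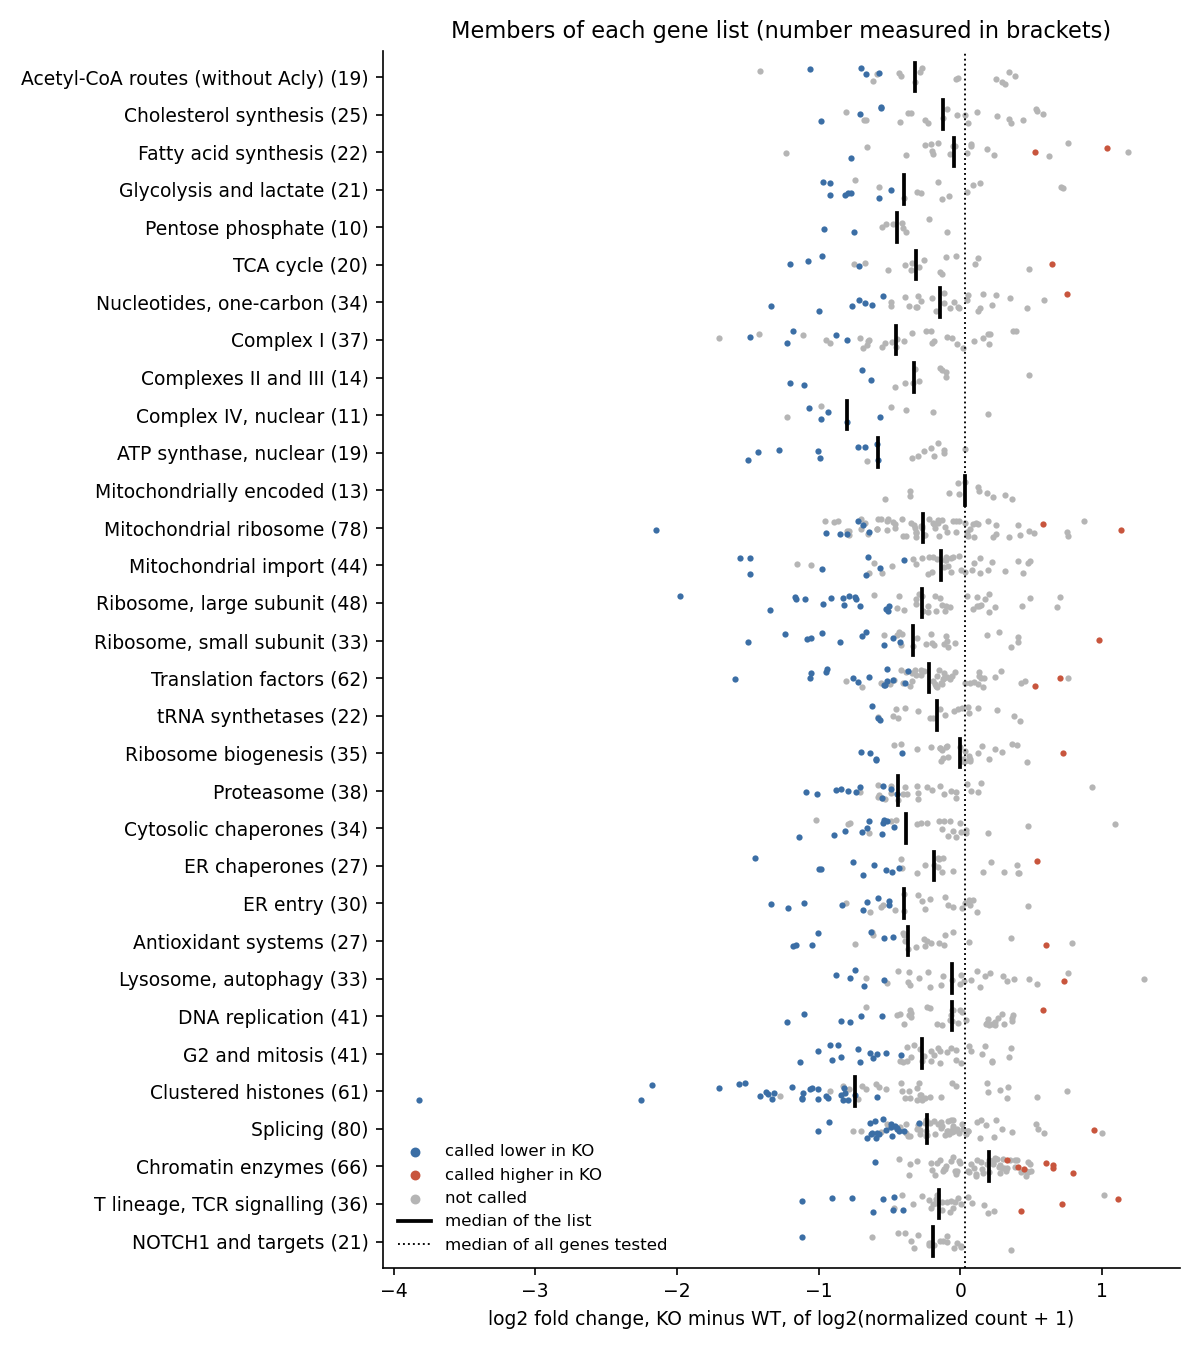
Log2 fold change (KO minus WT) of each measured member of 32 gene lists, 1 point per gene, with called genes in blue (lower) and red (higher), the list median as a black bar and the median of all genes as a dotted line. Most list medians lie to the left of the dotted line, among them clustered histones at -0.74 and complex IV at -0.80, and chromatin enzymes at 0.20 lie to the right.

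Acly sits between citrate export and lipid synthesis, so these routes are given first. Of 19 measured genes of citrate export and acetyl-CoA supply other than Acly, 4 fell and 0 rose (21.1% against 8.07% of all genes), with a list median of -0.32. Mpc1, a subunit of the carrier that brings pyruvate into mitochondria, was at 314, 466, 364 and 459 in WT and 214, 169, 200.2 and 176 in KO. The groups did not overlap, the value was -1.06 (SE 0.18, limma adjusted p = 0.00308) on the log2 scale, and the call held under every alternative. The others were subunits or regulators of the pyruvate dehydrogenase complex, which makes acetyl-CoA inside mitochondria: Dld at -0.67, Pdha1 at -0.58 and the kinase Pdk3 at -0.70. Without WT replicate 2 or WT replicate 4 the list had 2 calls, as it had without KO replicates 1 and 2, where Pdha1 and Pdk3 were lost, and 1 once trends with transcript length, GC content and mean level were removed (trend removed, below). Acss2, the enzyme of the acetate route, was at 186, 173, 249 and 249 in WT and 249, 162, 202 and 226 in KO, with overlapping groups and a log2 fold change of -0.03 (SE 0.21, limma adjusted p = 0.949). Slc25a1, the mitochondrial citrate exporter, was at 149.6, 116, 128 and 142 in WT and 105, 98.1, 116 and 119 in KO, and its value of -0.29 did not pass (adjusted p = 0.402).

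Of 25 genes of cholesterol synthesis, 4 fell and 0 rose (16% against 8.07%). The median was -0.12, and the summed level was 82.7% to 87.8% of the WT mean in the KO libraries against 94.9% to 105% in WT, with no overlap. As a share of the library total the groups overlapped, at 0.0964% to 0.102% in KO and 0.101% to 0.113% in WT. Sqle, squalene epoxidase, was at 328, 242, 216 and 315 in WT and 140.4, 104, 173 and 137 in KO, with no overlap and a log2 fold change of -0.99 (SE 0.22, limma adjusted p = 0.0105). Hmgcs1, which acts before mevalonate, changed by -0.56, and Cyp51, a sterol demethylase, by -0.71. The count was 2 without WT replicate 1, 3 or 4 or KO replicate 3, and the calls for Sqle and Hmgcs1 were lost without KO replicates 1 and 2. Of 22 genes of fatty acid synthesis 2 rose and 1 fell (9.09% and 4.55%, against 4.58% and 8.07% over all genes), with a median of -0.05. Srebf1, a transcription factor of lipid synthesis, was at 158, 207, 344 and 393 in WT and 506, 596, 565 and 461 in KO, higher in every KO library, with a log2 fold change of 1.03 (SE 0.25, limma adjusted p = 0.016). Acaca, acetyl-CoA carboxylase, rose with overlapping groups (0.53, limma adjusted p = 0.0387), and Hsd17b12, an elongation enzyme, fell (-0.77). Fasn, fatty acid synthase, was at 1527, 1021, 1433 and 1316 in WT and 1265, 1160.2, 1246 and 1386 in KO and did not pass (-0.05, adjusted p = 0.836). The call for Srebf1 was lost without WT replicate 2, that for Hsd17b12 without WT replicate 2 or 4 or KO replicate 1 or 2, and that for Acaca without WT replicate 1, 2 or 3 or KO replicate 1, 2 or 3. Without KO replicates 1 and 2 none of the 3 was called in limma.

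Several enzymes of glucose breakdown were called lower in KO. Of 21 genes of glycolysis and lactate handling 8 fell and 0 rose (38.1% against 8.07%), with a median of -0.40, and the summed level was 65.2% to 68.8% of the WT mean in KO against 97.6% to 103% in WT. Ldha, which turns pyruvate into lactate, was at 2376, 2277, 2223 and 2271 in WT and 1451, 1096, 1383 and 1469 in KO, with no overlap between the groups. Eno1, enolase, was at 1622, 1272, 1643 and 2091 in WT and 812, 719, 1125 and 732 in KO and Pgk1, phosphoglycerate kinase, at 1288, 1185, 1275 and 1218 in WT and 562, 665, 845 and 787 in KO, again without overlap. Slc16a1, the lactate exporter, fell from 5642 ± 454 to 3793 ± 453 (SD, n = 4 each) and Gapdh, which oxidizes glyceraldehyde phosphate, from 3186 ± 213 to 2285 ± 341. Tpi1 and Aldoa each fell by 0.92 on the log2 scale and Gpi1 by 0.79. Other members did not pass, among them Hk1 at -0.16, Hk2 at -0.30, Pfkp at -0.13, Pkm at -0.40 and Slc2a1 at -0.74. Pfkl at 0.71 and Pfkm at 0.09, which were positive, did not pass either. There were 8 lower calls whichever library was left out, though not always the same genes: 7 of the calls held in each of these fits, and Gapdh was lost without WT replicate 2. There were 6 without KO replicates 1 and 2, where Tpi1 and Aldoa were lost, and 6 with the trend removed. Under all 20 alternatives 3 calls held.

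All 10 measured genes of the pentose phosphate pathway, which makes ribose and NADPH from glucose, had negative values, and 2 passed (20% against 8.07%). Prps2, which makes the activated ribose for nucleotides, was at 8607, 8961, 9028 and 9471 in WT and 4254, 3128, 6111 and 5589 in KO, a log2 fold change of -0.96 (SE 0.17, limma adjusted p = 0.00308). Rpe, a ribulose phosphate epimerase, was at 1069, 939.5, 874 and 1032 in WT and 627, 441, 679 and 602 in KO. Both calls held under every alternative. Of 20 genes of the tricarboxylic acid cycle 4 fell and 1 rose (20% and 5%, against 8.07% and 4.58%), with a median of -0.31 (-0.11 without KO replicates 1 and 2). Idh3a, of isocitrate dehydrogenase, was at 759.9, 775, 772 and 911 in WT and 358, 416, 413 and 444 in KO, and Ogdh, of oxoglutarate dehydrogenase, at 1198, 1244, 1378 and 1778 in WT and 651, 559, 809 and 627 in KO. Mdh1, the cytosolic malate dehydrogenase, was at 667, 917, 953 and 1005 in WT and 568, 528, 565 and 479 in KO. Dlst, another subunit of the oxoglutarate dehydrogenase complex, went the other way, at 1533, 1442, 1224 and 1198 in WT and 1749.9, 2478, 1997 and 2254 in KO, with a log2 fold change of 0.65 (SE 0.13, limma adjusted p = 0.0075). Cs, citrate synthase, which makes the substrate of ATP citrate lyase, was at 1169, 1005, 1027 and 1107 in WT and 825, 852, 994 and 939 in KO, with no overlap, but missed the threshold (-0.26, adjusted p = 0.177).

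The respiratory chain is built from subunits encoded in the nucleus and in mitochondria. Of 37 measured complex I subunits 5 fell, of 14 genes of complexes II and III and cytochrome c 4, of 11 nuclear complex IV subunits 5 and of 19 nuclear ATP synthase genes 9 (13.5%, 28.6%, 45.5% and 47.4% against 8.07%), and 0 rose. With Ndufa4 counted in complex IV the shares were 4 of 36 (11.1%) and 6 of 12 (50%). The medians were -0.46, -0.32, -0.80 and -0.58, and each of the 4 summed levels was lower in every KO library than in every WT library. Ndufa4, listed with complex I by its name but known to bind the cytochrome oxidase (complex IV), was at 264, 290.1, 179 and 261 in WT and 83.2, 75.8, 106 and 84.8 in KO, and Ndufb2, of complex I, at 548, 468, 597 and 677 in WT and 225, 264, 270.5 and 241 in KO. Uqcrc2, a core subunit of complex III, was at 1219.5, 1033, 1100.1 and 1358 in WT and 436, 421, 747 and 636 in KO, and Cox7c, of complex IV, at 555, 609.8, 539 and 579.7 in WT and 291, 257, 401 and 263 in KO. Atp5o, which joins the stalk of ATP synthase to its catalytic head, was at 703, 826, 748 and 863 in WT and 195, 278, 433 and 302 in KO, and Atp5e, of the central stalk, at 169, 182, 242 and 283 in WT and 56.9, 87.6, 93 and 68.7 in KO. Log2 fold changes were -1.48 for Ndufa4, -1.18 for Ndufb2, -1.11 for Uqcrc2, -0.93 for Cox7c, -1.43 for Atp5o and -1.50 for Atp5e (limma adjusted p from 0.000969 to 0.00361), and all 6 calls held under every alternative. After removal of the trend in log2 values with transcript length, GC content and mean level, 3, 2, 2 and 6 members of the 4 groups were called lower. The lowest counts with 1 library left out were 3 for complex I (without WT replicate 2, 3 or 4 or KO replicate 2), 2 for complexes II and III (without WT replicate 3 or 4 or KO replicate 1), 2 for complex IV (without WT replicate 4) and 6 for ATP synthase.

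The 13 protein-coding genes of the mitochondrial genome had a median of 0.03 and 0 calls. In limma 2 of the 13 had an unadjusted p under 0.05, against 3984 of all 14184 genes. Their summed level was 125%, 134%, 59.4% and 68.7% of the WT mean in KO replicates 1 to 4, where WT had 95.6% to 103%. The KO libraries thus lay on both sides of WT. Without KO replicates 1 and 2 the median was -0.56 and 10 of the 13 were called lower, and without KO replicate 2 alone 2 were. With the trend removed the median was 0.52 and 1 gene was called higher, so the direction of these genes depends on the scaling and on 2 libraries.

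Of 78 mitochondrial ribosomal protein genes 7 fell and 2 rose (8.97% and 2.56%, near the background shares), with a median of -0.26. Mrpl15 was at 878, 811, 933 and 749 in WT and 497, 536, 456 and 547 in KO, while Mrpl27 rose, at 193, 129, 184 and 138 in WT and 329, 449, 319.8 and 315 in KO, with a log2 fold change of 1.14 (SE 0.20, limma adjusted p = 0.00359). The lower count was 4 without WT replicate 1, 3 or 4 and 2 without KO replicates 1 and 2. Of 44 genes of mitochondrial import and cristae 8 fell and 0 rose (18.2% against 8.07%). Chchd2, a protein of the intermembrane space, was at 1065, 997, 1107 and 1098 in WT and 320.4, 282, 461 and 503 in KO, Pmpcb, which cleaves the import signal, at 649, 517, 486 and 502 in WT and 207, 107, 343 and 172 in KO, and Minos1, a subunit of the complex that shapes cristae, at 332, 388, 265 and 399 in WT and 174, 93.4, 106 and 104 in KO. The groups did not overlap for any of the 3, and their log2 fold changes were -1.48, -1.49 and -1.56. The fit with the trend removed called 4 import genes lower, and that without KO replicates 1 and 2 called 4.

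**Figure D3:**
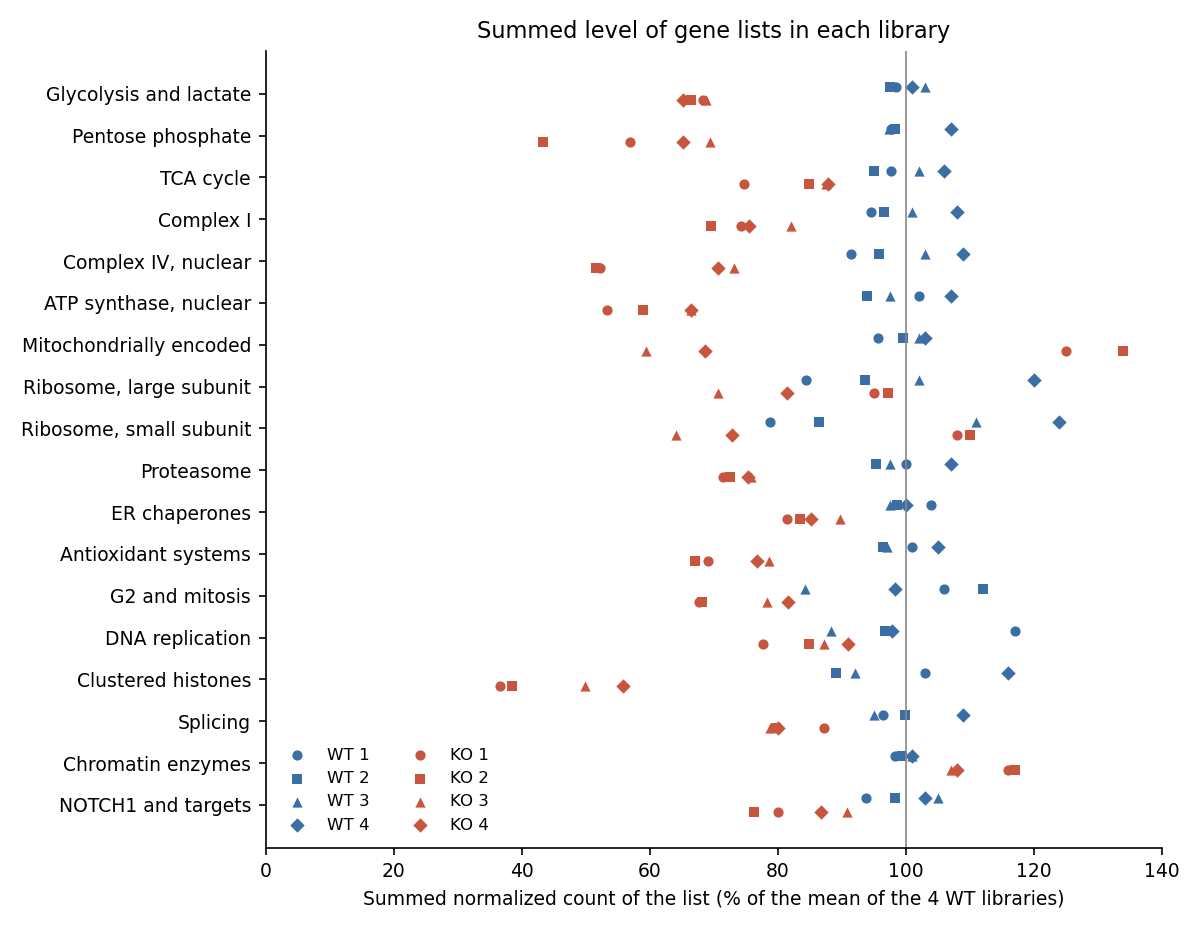
Summed normalized count of 18 gene lists in each library, as percent of the mean of the 4 WT libraries, with WT in blue, KO in red and 1 marker shape per replicate. KO libraries lie below all WT libraries for glycolysis (65.2% to 68.8%) and clustered histones (36.6% to 55.8%) and above them for chromatin enzymes (107% to 117%), while mitochondrially encoded and ribosomal protein genes put KO replicates 1 and 2 apart from KO replicates 3 and 4.

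Genes of the ribosome and of translation were measured next. Of 48 large-subunit ribosomal protein genes 16 fell and 0 rose, and of 33 small-subunit genes 11 fell and 1 rose (33.3% lower in each against 8.07%), with medians of -0.27 and -0.34. The summed levels overlapped: 95%, 97.3%, 70.6% and 81.5% of the WT mean in KO replicates 1 to 4 for the large subunit, against 84.4% to 120% in WT. Rpl39, a small protein of the exit tunnel, was at 2679.5, 4232, 4436 and 4476 in WT and 769.9, 639.5, 1474 and 1287 in KO, a log2 fold change of -1.98 (SE 0.24, limma adjusted p = 0.000947). Of its 31-base stretches 9.06% occur in another gene, which makes its count uncertain, and for Rpl7 the share was 25.8%. Rplp1, of the stalk, was at 1496, 1259, 1409 and 1289 in WT and 485, 613, 697 and 794 in KO, and 75.1% of its stretches are shared, so its count is uncertain too. The exception was Rps28, at 85.7, 79.8, 47.4 and 71.4 in WT and 119, 142, 172 and 123 in KO (0.98, limma adjusted p = 0.0266), whose call was lost without WT replicate 3 or 4 or KO replicate 2 or 3, or without KO replicates 1 and 2. Removing the trend brought the medians to -0.04 and -0.07, with 8 and 5 members lower and 2 and 3 higher, and without KO replicates 1 and 2 there were 7 and 6 lower. Without WT replicate 4 the small-subunit count was 7, and without KO replicate 3 the large subunit had 3 higher calls.

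Of 62 translation initiation and elongation factors 15 fell and 2 rose (24.2% and 3.23%), with a median of -0.22 and a summed level of 75.4% to 85.3% of the WT mean against 96.9% to 107%. Eif5a, which helps ribosomes past proline stretches, was at 10155, 9459, 8005 and 9383 in WT and 3993, 3387, 5440.2 and 5285 in KO. Eif3e, of the initiation factor that recruits the small subunit, was at 3249, 3869, 3834 and 4247 in WT and 1667, 1452, 2096 and 2126 in KO, and Eif2b2, of the exchange factor that recharges eIF2, at 146, 169, 253 and 237 in WT and 48.8, 50.6, 80.9 and 86.6 in KO. Their log2 fold changes were -1.05, -1.06 and -1.59, with no overlap. Eif4g3, a scaffold of cap-dependent initiation, rose, at 664, 530.1, 617 and 613 in WT and 1252, 998, 898 and 839 in KO, with a log2 fold change of 0.70 (SE 0.15, limma adjusted p = 0.00799) and a call that was lost without KO replicates 1 and 2. Called factors numbered 7 lower and 4 higher with the trend removed. Of 22 cytosolic tRNA synthetases 3 fell (13.6% against 8.07% over all genes), and 5 fell without KO replicate 3. The 3 were Dars, Farsb and Qars, with log2 fold changes of -0.57, -0.63 and -0.58. With the trend removed 2 synthetases fell, and without KO replicates 1 and 2 the calls for Farsb and Qars were lost and 1 was left. Of 35 ribosome biogenesis genes 5 fell and 1 rose (14.3% and 2.86%, against 8.07% and 4.58%), with a median of -0.001. Rrn3, an initiation factor of RNA polymerase I, was at 1557, 1395, 1447 and 1314 in WT and 992, 947, 929 and 902 in KO. That list had 1 lower call without WT replicate 4, 2 without KO replicate 2 and 3 without WT replicate 1, 2 or 3 or KO replicate 3 or 4.

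The proteasome degrades tagged proteins, and cytosolic chaperones fold new ones. Of 38 proteasome subunits 11 fell and 0 rose (28.9% against 8.07%), 33 of 38 values were negative and the median was -0.44. The summed level was 71.5% to 75.8% of the WT mean in KO against 95.3% to 107% in WT. Psma1, of the outer ring of the core, was at 1843, 1764, 1715 and 2309 in WT and 891, 1042, 1060.5 and 1143 in KO, Psmb1, of the inner ring, at 525, 553, 569.8 and 648 in WT and 303, 327, 265 and 391 in KO, and Psmd3, of the lid, at 704, 795, 755 and 818 in WT and 431, 407, 486 and 522 in KO. Log2 fold changes were -0.88, -0.84 and -0.74. Without WT replicate 4 or KO replicate 2, 7 subunits were called, and 7 calls held under all 20 alternatives. Of 34 cytosolic chaperone genes 11 fell and 0 rose (32.4%), with a median of -0.38. Cct3 and Cct4, subunits of the chaperonin that folds actin and tubulin, were at 2466, 2529, 2717 and 2847 in WT and 1266, 882, 1395 and 1305 in KO and at 2373, 2467, 2285 and 2804 in WT and 1173, 1234, 1382 and 1589 in KO, with log2 fold changes of -1.14 (SE 0.14, limma adjusted p = 0.000947) and -0.89. Dnaja1 and Dnaja2, cochaperones of Hsp70, changed by -0.66 and -0.69, and Hsp90aa1, the inducible Hsp90, fell from 7423 ± 1503 to 4206 ± 728 (SD, n = 4 each). Removing the trend left 5 chaperone calls.

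Chaperones of the endoplasmic reticulum (ER) share a promoter element, so their promoters are shown. The ER stress element, CCAAT followed by 9 bases of any kind and CCACG on either strand, was searched in the 300 bases from 250 before to 50 after the start site, taken from RefSeq on GRCm38.p6. It was found in 9 of the 24 ER chaperone and unfolded protein response genes with such a window (37.5%) and in 16 of 10490 windows of all tested genes (0.153%). The stretches below, each the element (or its reverse complement) in capitals with 20 bases on either side, start with the 4 members that fell and go on with the 5 that did not pass.
Hspa5 (chr2:34772005-34772063, plus strand): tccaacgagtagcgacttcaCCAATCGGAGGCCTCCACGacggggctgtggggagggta
Hsp90b1 (chr10:86705618-86705676, minus strand): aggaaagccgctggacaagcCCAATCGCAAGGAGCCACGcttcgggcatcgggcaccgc
Calr (chr8:84847055-84847113, minus strand): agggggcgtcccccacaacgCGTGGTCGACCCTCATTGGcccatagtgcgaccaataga
Canx (chr11:50325780-50325838, minus strand): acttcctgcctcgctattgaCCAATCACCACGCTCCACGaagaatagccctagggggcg
Dnajc3 (chr14:118937807-118937865, plus strand): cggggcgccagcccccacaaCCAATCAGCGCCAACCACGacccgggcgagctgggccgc
Pdia6 (chr12:17266471-17266529, plus strand): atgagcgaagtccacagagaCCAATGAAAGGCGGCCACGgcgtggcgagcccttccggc
Syvn1 (chr19:6046512-6046570, plus strand): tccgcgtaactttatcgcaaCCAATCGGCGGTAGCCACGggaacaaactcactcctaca
Creld2 (chr15:88819500-88819558, plus strand): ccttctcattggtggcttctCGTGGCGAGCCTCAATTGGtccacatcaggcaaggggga
Ero1lb (chr13:12565662-12565720, plus strand): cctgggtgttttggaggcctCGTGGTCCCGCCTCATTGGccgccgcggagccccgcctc

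Of 27 genes in that list 9 fell and 1 rose (33.3% and 3.7%), with a median of -0.19. Hspa5, the main Hsp70 of the ER, was at 1460.5, 1282, 1029 and 1588 in WT and 957, 873, 765 and 579 in KO, with no overlap and a log2 fold change of -0.76 (SE 0.17, limma adjusted p = 0.0123). Hsp90b1, its Hsp90, was at 3861, 3447, 2891 and 3494 in WT and 2568, 2514, 2304 and 2378 in KO. Calr and Canx, lectins that fold glycoproteins, were at 2277, 1865, 1762 and 2125 in WT and 974, 1437, 1411 and 1207 in KO and at 3288, 3383, 2967 and 3058 in WT and 2552, 2337, 2402 and 2134 in KO. Among members whose window holds the same element and that did not pass, Dnajc3, an ER cochaperone, was at 975, 1097, 1162 and 1141 in WT and 916, 667, 958 and 760.3 in KO, without overlap (-0.42, limma adjusted p = 0.0652). Syvn1, a ubiquitin ligase of ER degradation, was at 318, 243, 334 and 270.1 in WT and 332, 419.6, 300.1 and 302 in KO and Creld2, an ER protein of disulfide chemistry, at 27.4, 24.9, 23.9 and 37.5 in WT and 45.2, 55.7, 43.1 and 17.3 in KO, with overlapping groups and log2 fold changes of 0.21 and 0.40. Members that carry the element therefore lay on both sides of 0. Pdia3 and P4hb, disulfide isomerases, changed by -0.99 and -0.61, and Ppib, a prolyl isomerase, was at 719, 782, 556 and 709.8 in WT and 349, 293, 339.7 and 413 in KO. With the trend removed 4 members were called lower, and among the 4 above none of them was.

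Of 30 genes for entry into the ER 9 fell and 0 rose (30% against 8.07%), with a median of -0.40. Stt3b, a catalytic subunit that attaches sugars to new proteins, was at 2342, 2207, 2224 and 2257 in WT and 1140.1, 1185, 1333 and 1424 in KO, a log2 fold change of -0.83 (SE 0.11, limma adjusted p = 0.000955). Spcs1, of the signal peptidase, was at 279, 358, 318 and 418 in WT and 152, 148, 188 and 146 in KO, and Sec61b, of the translocation channel, at 175, 206, 193 and 208 in WT and 88.6, 66.2, 61.4 and 134 in KO. Without WT replicate 4 the count was 4, and 5 with the trend removed. Leaving out KO replicates 1 and 2 also gave 5, with the call for Sec61b lost. Of 27 genes of the peroxiredoxin, thioredoxin and glutathione systems 7 fell and 1 rose (25.9% and 3.7%), with a median of -0.37 and a summed level of 67.1% to 78.6% of the WT mean against 96.5% to 105%. Prdx1, which reduces hydrogen peroxide, was at 2896, 3168, 2862 and 3426 in WT and 1539, 1131, 1446 and 1432 in KO, with a log2 fold change of -1.16 (SE 0.12, limma adjusted p = 0.000576). Txn1, thioredoxin, was at 319.7, 293, 273 and 364 in WT and 182, 141, 169 and 132 in KO. Slc7a11, the cystine importer, rose with overlapping groups (0.61, limma adjusted p = 0.0471), and its call was lost with the trend removed and in 7 of the 8 fits that left out a library, all but that without KO replicate 2. The lower count was 2 without WT replicate 4, 3 without WT replicate 1, 4 without WT replicate 3 or KO replicate 1, and 2 with the trend removed. Of 33 lysosome and autophagy genes 5 fell and 1 rose (15.2% and 3.03%, against 8.07% and 4.58%), with a median of -0.06. Atp6v1a, of the proton pump, was at 1264, 1601, 1379.7 and 1584 in WT and 769, 744, 891 and 998 in KO. With the trend removed 2 of the 33 fell, 0 rose and the median was -0.20, and 3 fell without KO replicates 1 and 2.

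Nucleotide supply and the cell cycle are next. Of 34 genes of nucleotide and folate metabolism 7 fell and 1 rose (20.6% and 2.94%), with a median of -0.14, and 4 fell with the trend removed (median -0.05). Paics, of purine synthesis, was at 2207, 2049, 2025 and 2009.8 in WT and 1446, 1097, 1415 and 1118 in KO, and Dut, which clears dUTP, at 1337, 1337, 872 and 1049 in WT and 585, 389, 723 and 623 in KO. Of 41 DNA replication genes 6 fell and 1 rose (14.6% and 2.44%), with a median of -0.06. Rpa3, of the protein that coats single-stranded DNA, was at 406, 442, 386 and 454 in WT and 187, 159, 200.3 and 175 in KO, and Rfc4, of the clamp loader, at 495, 449, 520.0 and 429 in WT and 274, 167, 209 and 241 in KO. Log2 fold changes were -1.22 for Rpa3 and -1.10 for Rfc4. Without WT replicate 2 the replication count was 3. Of the 41 measured G2 and mitotic genes 13 fell and 0 rose (31.7%), with a median of -0.27, and the summed level was 67.7% to 81.6% of the WT mean against 84.3% to 112%. As a share of the library total the groups overlapped, at 0.612% to 0.752% in KO and 0.716% to 0.943% in WT. H2afz, a histone variant often counted with proliferation genes, was at 2616, 3234, 2946 and 3534 in WT and 1264, 1159, 1819 and 1443 in KO, and Mad2l1, of the spindle checkpoint, at 1562, 2148, 1620.3 and 1809.6 in WT and 857, 894, 1117 and 1049 in KO. Their log2 fold changes were -1.13 and -0.86. With the trend removed 7 mitotic genes were called lower and 1 higher, and without KO replicates 1 and 2, 5 lower.

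Clustered histone genes are transcribed in S phase, mostly lack introns and make messages without a poly(A) tail. The way RNA was selected for the libraries was not given in the sources used here, and a poly(A) selection would measure such messages only in part. Of 61 measured genes 28 fell and 0 rose (45.9% against 8.07%), the median was -0.74, and the summed level was 36.6%, 38.5%, 49.9% and 55.8% of the WT mean in KO replicates 1 to 4, where WT had 89.1% to 116%. By class, of 13 H4 genes 9 fell, of 17 H2B genes 13, of 14 H2A genes 3, of 12 H3 genes 2 and of 5 H1 genes 1, with medians of -1.27, -0.95, -0.55, -0.37 and -0.28. Summed H4 counts were 15651 to 21584 in WT and 2883, 3498, 5904 and 7456 in KO replicates 1 to 4. Summed H2B counts were 8398 to 10487 in WT and 4060 to 5540 in KO. For H3 and H1 the sums were 2778 to 4046 against 2382 to 2731, and 2951 to 3505 against 2283 to 2846. For H2A they were 962 to 1188 in WT against 711 to 948 in KO. For H3, H1 and H2A only a narrow gap lay between the lowest WT and the highest KO library. These sums are not scaled to library totals (mean KO total 91.6% of WT). As shares of library totals H3, H1 and H2A overlapped. Among H4 genes, Hist1h4m was at 13206, 11582, 12739 and 17181 in WT and 1280.4, 2298, 4021 and 5480.3 in KO, with a log2 fold change of -2.25 (SE 0.33, limma adjusted p = 0.00131). Hist1h4d was at 1357, 1715, 1252 and 1626 in WT and 419.8, 339, 555 and 533 in KO, and Hist1h4h at 209, 361, 268 and 324 in WT and 48.1, 63.4, 62.1 and 78.5 in KO, with log2 fold changes of -1.70 and -2.18. Hist2h3c2, an H3 gene, was at 459.7, 429.6, 324 and 455 in WT and 132, 123, 139 and 187 in KO (-1.52).

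Copies of a class are near identical, so reads can be split among them. Of the 31-base stretches in its transcripts Hist1h4m shares 91.7% with another gene, Hist1h4h 50%, Hist2h3c2 64.2% and Hist1h4d 14.7%. Single histone genes are therefore uncertain, and the sums are less so. The fall of the H4 sum still rests largely on Hist1h4m. In WT replicate 1 this gene had 13206 of 17488 H4 counts, and in KO replicate 1 it had 1280 of 2883. It is also a large part of the sum of all clustered histone genes, which was 35494 in WT replicate 1 and 12681 in KO replicate 1. The start regions show how close some copies are: TATAAA (capitals), the letters of the TATA box, lies in the 300-base RefSeq window of 31 of 55 clustered histone genes (56.4%) and of 942 of 10490 genes (8.98%), on either strand. The stretches of Hist1h4m and Hist1h4n, shown because both genes were called lower, are the same 46 bases, and that of Hist1h4d differs from them. The motif begins at -128, -127 and -32 from the RefSeq start site in the order printed, and a match is not shown to be a working site.
Hist1h4m (chr13:21811598-21811643, plus strand): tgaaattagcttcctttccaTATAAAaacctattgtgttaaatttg
Hist1h4n (chr13:21832299-21832344, minus strand): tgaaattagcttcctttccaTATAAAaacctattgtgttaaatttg
Hist1h4d (chr13:23581516-23581561, plus strand): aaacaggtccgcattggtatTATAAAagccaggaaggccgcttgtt
Hist1h4n was at 1195, 587, 883 and 906 in WT and 349.5, 119, 497 and 603 in KO, with overlapping groups (-1.37, limma adjusted p = 0.0345) and a call lost without WT replicate 1, 3 or 4, KO replicate 1, or KO replicates 1 and 2, or with the trend removed, while Hist1h4m did not overlap. CCAAT was found in 46 of the 55 histone windows (83.6%) and in 28 of 34 of the G2 and mitosis list (82.4%), against 39.7% of all windows. It was in 45.0% of windows of genes called lower and 34.7% of those called higher. Without KO replicates 1 and 2, 17 histone genes were called lower.

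**Figure D4:**
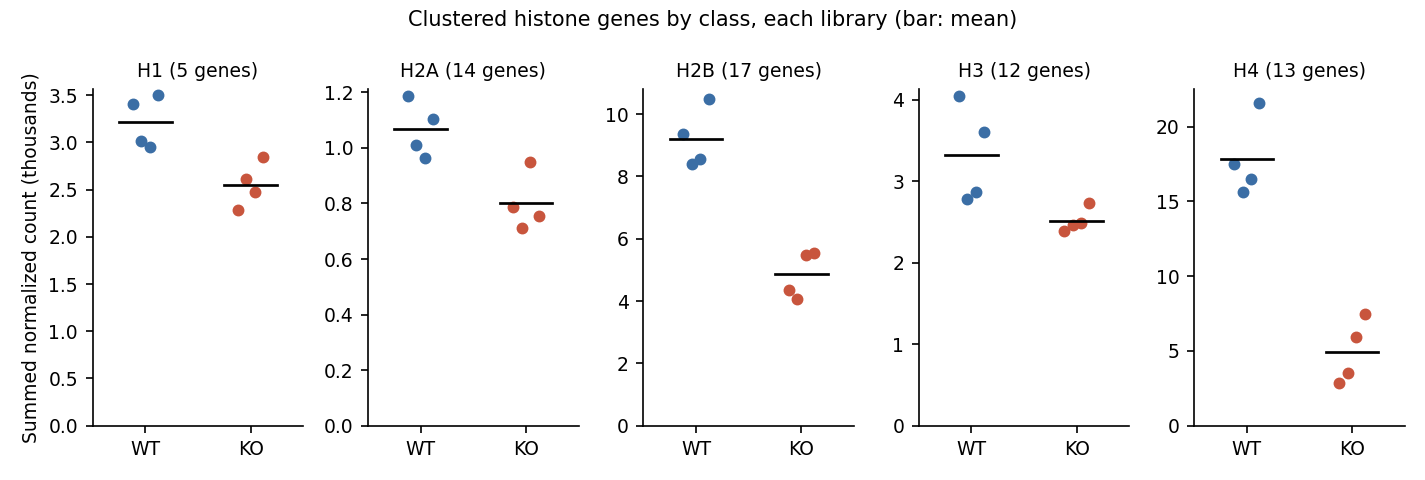
Summed normalized counts of the clustered histone genes of each class in each library, with the mean as a bar and each axis starting at 0. For H4 the KO libraries lie between 2883 and 7456 and the WT libraries between 15651 and 21584, a difference that rests largely on Hist1h4m. In the other classes too each KO library lies below each WT library in these counts, which are not scaled to library totals (mean KO total 91.6% of WT). As shares of library totals H2A, H3 and H1 overlap between the groups.

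Splicing factors and chromatin enzymes had calls mainly in opposite directions. Of 80 spliceosome, SR and hnRNP genes 21 fell and 1 rose (26.2% and 1.25%), with a median of -0.24. Srsf1, an SR protein, was at 11800.3, 10401, 10697 and 12208 in WT and 7524, 6982, 8163 and 7609 in KO, Hnrnpa1, an hnRNP, at 7549, 8176, 7233 and 8397 in WT and 4070.1, 4934, 5217 and 5771 in KO, and Prpf8, the core of the spliceosome, at 2217, 1874, 2014 and 2027 in WT and 1282, 1167, 1449 and 1379.9 in KO. Their log2 fold changes were -0.57, -0.66 and -0.63. With the trend removed the median was -0.05, 4 were called lower and 3 higher, and quantile normalization left 11 lower. Of 66 chromatin remodelers, histone methyltransferases and acetylation enzymes 7 rose and 1 fell (10.6% and 1.52% against 4.58% and 8.07%), 45 values were positive, and the summed level was 116%, 117%, 107% and 108% of the WT mean against 98.4% to 101%. Tet2, which oxidizes methylcytosine, was at 326, 235, 248 and 250.5 in WT and 393, 598, 461 and 397 in KO, with a log2 fold change of 0.79 (SE 0.18, limma adjusted p = 0.0124). Kdm3b, a histone demethylase, was at 1098, 1068, 1032 and 1119 in WT and 1305, 1638, 1509 and 1470.2 in KO, and Kmt2d, a histone methyltransferase, at 2432, 2521, 1889 and 2098 in WT and 4149, 4775, 2704 and 2796 in KO. Tet1 fell, at 384, 412, 412 and 535 in WT and 266, 265, 319 and 289 in KO (-0.60, limma adjusted p = 0.0258). The higher count was 2 without WT replicate 2 or 4 or KO replicate 1, 3 without WT replicate 3, 4 without KO replicate 2, 2 without KO replicates 1 and 2 (Tet2, Kmt2d and Tet1 among the calls lost), and 22 after quantile normalization. Of 337 Zfp genes 22 fell and 10 rose (6.53% and 2.97%, below the background shares), with Zfp422 at 1842, 1819, 2146 and 1945 in WT and 749, 576, 1037 and 911 in KO and Zfp609 at 273, 259.7, 227 and 245 in WT and 459, 391, 451 and 472 in KO. The lower Zfp count was 9 to 12 and the higher count 5 to 6 without WT replicate 2, 3 or 4, and 5 were higher without KO replicate 2 or 4.

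T-lineage genes moved in both directions. Of 36 regulators and T-cell receptor signalling genes 8 fell and 3 rose (22.2% and 8.33%), with a median of -0.15. Tcf7, a transcription factor of early T cells, was at 19086, 19381, 18732 and 18585 in WT and 9138, 7561, 12187 and 12347 in KO, with a log2 fold change of -0.91 (SE 0.14, limma adjusted p = 0.00158). Il7r, the interleukin 7 receptor, was at 1525, 1356, 1736 and 1559 in WT and 472, 694, 752 and 1030.4 in KO, a change of -1.11 (SE 0.19, limma adjusted p = 0.00308). Both calls held under every alternative. Dntt, which adds bases at V(D)J joins, was at 5063, 4689.9, 4372 and 4049.9 in WT and 2983, 2986, 3955 and 3190.3 in KO, and Rag2, of the recombinase, at 1168, 1631, 1700.1 and 1937 in WT and 974, 633, 1096 and 1119 in KO. Cd4, a coreceptor, rose, at 202, 139, 268 and 169 in WT and 503, 532, 483 and 215 in KO, with overlap through KO replicate 4. The higher count was 1 without WT replicate 2 or 4 or KO replicate 1, 2 or 3. The lower count was 3 without WT replicate 3 or 4, 4 without WT replicate 2, 5 without KO replicate 1 or 2, and 2 without KO replicates 1 and 2 or with the trend removed. Dntt, Rag2 and Cd4 were among the calls lost without KO replicates 1 and 2. Of 21 measured genes of NOTCH1 and its targets 18 were negative and 1, Il7r, fell. Notch1 was at 13478, 14927, 16525 and 15841 in WT and 10646, 10258, 14831 and 12441 in KO, with overlap (-0.35, limma adjusted p = 0.0696). The summed level of the list was 76.3% to 90.9% of the WT mean in KO against 93.8% to 105%, without overlap. As a share of the library total the groups overlapped, at 0.409% to 0.489% in KO and 0.467% to 0.515% in WT. Myc was at 792, 923, 1095 and 1083 in WT and 920.4, 1053, 775 and 818 in KO (-0.12, adjusted p = 0.62).

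Stress and survival lists are short, and their shares are read against 8.07% lower and 4.58% higher over all genes. Of 23 p53 targets 2 fell and 2 rose (8.7% each). Ccng1, a cyclin induced by p53, was at 1902, 2236, 2349 and 2443 in WT and 1088, 880.4, 1326 and 1079 in KO, with a log2 fold change of -1.04 (SE 0.14, limma adjusted p = 0.000968) that held under every alternative. Tnfrsf10b, a death receptor, and Aen, a nuclease, rose by 0.75 and 1.02, and Trp53inp1 fell by 0.67 on the log2 scale, with calls that were lost when several single libraries, or KO replicates 1 and 2, were left out. Of 17 ATF4 targets 1 fell, Psat1 of serine synthesis (-0.77), and 1 rose (5.88% each), Slc7a11, whose call was rarely kept (above). The call for Psat1 was lost without KO replicates 1 and 2. Of 30 interferon response genes 1 rose (3.33%) and 0 fell. This was Stat2, at 78, 133, 97 and 139 in WT and 196, 207, 211 and 181 in KO, a call lost without WT replicate 1 or 3 or KO replicate 1, 2 or 3 and with the trend removed. Without KO replicates 1 and 2 that list had 0 higher calls and 1 lower, and its median went from 0.21 to -0.008. Of 16 MHC class I genes 2 fell and 3 rose (12.5% and 18.8%), 8 values were positive and the median was 0.02. The summed level was 51.7% to 73.9% of the WT mean in KO and 89.8% to 112% in WT. B2m, the light chain of these molecules, was at 10693, 13312, 13589 and 13017 in WT and 4346, 3058, 6517 and 5853 in KO, with no overlap and a log2 fold change of -1.41 (SE 0.19, limma adjusted p = 0.000969). In the same order the list summed to 18277, 20566, 22859 and 19730 in WT and 10516, 12331, 15040 and 13453 in KO. The lower sum therefore rests largely on B2m. H2-Q6, H2-Q4 and the regulator Nlrc5 rose by 1.52, 0.55 and 1.10, and Psmb8 of the immunoproteasome fell by 0.55 on the log2 scale. None of the 3 higher calls was made without WT replicate 4 or KO replicate 2, and the call for Psmb8 held in 1 of the 8 fits that left out a library, that without WT replicate 2. The calls for H2-Q6, H2-Q4 and Psmb8 were also lost without KO replicates 1 and 2, while that for B2m held under every alternative. Of 11 BCL2 family genes none passed limma's threshold, where 1 had an unadjusted p under 0.05 (3984 of all 14184 genes did). Of 9 genes of the oestrogen receptor and its response, listed because tamoxifen binds that receptor, 2 fell and 1 rose (22.2% and 11.1%). Myb and Xbp1 fell by 0.41 and 0.52 on the log2 scale and Igfbp4 rose, at 168, 193, 146 and 118 in WT and 454, 352, 293 and 178 in KO, with calls that were each lost without several single libraries and without KO replicates 1 and 2. The immediate early list, 21 genes that respond to tissue handling, had 1 call, lower (4.76%). This was Klf6, at 341, 398, 468 and 448 in WT and 203, 283, 256 and 247 in KO.

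Markers of other spleen cells were measured beside these results. All 18 neutrophil markers had positive values, 2 rose, and their summed level was 233%, 294%, 149% and 107% of the WT mean in KO replicates 1 to 4, where WT had 63.7% to 133%. Ltf was at 179, 233, 96.2 and 179 in WT and 1288, 1379, 503 and 275 in KO, and without KO replicates 1 and 2 no neutrophil marker was called. All 13 B cell markers were positive, with 0 calls in limma and 4 at an unadjusted p under 0.05, a share near that of all genes (3984 of 14184). They summed to 91.1% to 242% in KO against 66.9% to 152%. Of 12 macrophage and monocyte markers 1 rose, Lyz2, at 406, 547, 231 and 357 in WT and 1170.1, 1705, 893 and 597 in KO, which neutrophils also express. Of 19 erythroid markers 18 were negative and 3 fell, at 60.5%, 109%, 35.8% and 37.2% of the WT mean in KO replicates 1 to 4, where WT had 70.7% to 127%. Without KO replicate 2, 12 erythroid markers were called lower, and without KO replicates 1 and 2, 14. Hemgn, a nuclear protein of red cell precursors, was at 294, 355, 323 and 409 in WT and 150.1, 255, 103 and 129.9 in KO. Of 8 stroma and endothelium markers 7 were positive and their summed level was 125% to 150% of the WT mean against 92.3% to 109%, with Pecam1 at 567, 681, 684 and 667 in WT and 1006, 1009.8, 855 and 899 in KO. The calls for Lyz2 and Pecam1 were lost without KO replicates 1 and 2. Neutrophil markers summed to 2302 to 6331 normalized counts in KO and 1370 to 2859 in WT, and erythroid markers to 6026 to 18398 and 11885 to 21393. The part of these cells in the lists above was not tested.

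A rule on single genes took the 12 largest called changes in each direction that had no overlap and a mean of 100 or more in 1 group. Predicted genes, pseudogenes and immunoglobulin or T-cell receptor segments were left out by their symbols. Over all genes tested log2 fold changes ran from -8.12 to 3.95, so those named are not the largest of all. After Sh3pxd2b, Ltf, Cgref1, Plekhm2 and Slfn4, the higher end held Vasn, an inhibitor of TGF-beta signalling, at 27.8, 70.6, 33 and 30.4 in WT and 82.2, 136, 136 and 169 in KO, a change of 1.73 (SE 0.35, limma adjusted p = 0.00696). Gpsm1, a regulator of G protein subunits, was at 40.8, 40.6, 52.6 and 27.2 in WT and 105, 122, 105 and 169 in KO, and Ncf1, of the phagocyte NADPH oxidase, at 46.8, 61.2, 40.2 and 34.7 in WT and 176, 159, 100.2 and 119 in KO. Ccdc63, a coiled-coil protein, was at 36.3, 66.1, 117 and 59.7 in WT and 147, 193, 249 and 256 in KO. Nbeal2, needed for platelet granules, was at 332, 88.5, 442 and 288 in WT and 1022, 739, 837 and 506 in KO. Without KO replicates 1 and 2 the calls for Ltf, Slfn4, Nbeal2 and Ncf1 were lost, and that for Slfn4 also without WT replicate 2, 3 or 4 or KO replicate 1 or 2. At the lower end, Nbdy, a microprotein of the RNA decapping complex, was at 461, 366, 337 and 277 in WT and 48.7, 118, 154 and 59.5 in KO. Dsc2, a desmosomal cadherin, was at 213, 266, 381 and 285 in WT and 98.3, 90.5, 83.1 and 91.4 in KO, with all 4 KO libraries within 83.1 to 98.3, and a change of -1.62 (SE 0.22, limma adjusted p = 0.000969). Sptssa, a small subunit of the enzyme that starts sphingolipid synthesis, was at 978, 1433, 1289 and 1439 in WT and 409.7, 312, 444 and 663 in KO, Taf9b, a transcription cofactor, at 327, 326, 257 and 331 in WT and 85.9, 59.2, 128 and 199.9 in KO, and Tmem129, an ER ubiquitin ligase, at 203, 209, 162 and 200.1 in WT and 114, 46.9, 48.2 and 39.8 in KO. Khdrbs2, an RNA-binding protein, was at 109.7, 134, 98.6 and 75.1 in WT and 10.9, 28.1, 16.8 and 47.9 in KO. The calls for these 6 lower genes held under every alternative.

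Calls were not spread evenly over gene properties. In the decile of genes with the lowest mean level 0.353% were called lower and 0.846% higher, and in the highest decile 26.9% and 6.14%. The median log2 fold change went from 0.27 in the lowest decile to -0.16 in the highest. In the decile of lowest transcript GC content 12.7% were called lower, in the next 15.2%, and in the highest decile 2.75%. In the longest decile 8.53% were called higher and 5.01% lower, and in the shortest 2.89% and 9.66%. Transcripts of the longest decile were 0.12 to 0.17 higher (median log2) in each KO library than in the mean of WT. Across genes, which are not independent replicates, Spearman's rho of the log2 fold change was -0.261 with mean level, 0.168 with GC content and 0.103 with length. Many of the groups above are abundant or short, while the chromatin list is long (median transcript length 6135 bases). The part of these properties in each group was not tested beyond the fit with the trends removed. In that fit 648 genes were lower and 601 higher, so that 51.9% of calls were lower in place of 63.8%. Of 734 processed pseudogenes 62 rose and 16 fell, with a median of 0.33, the reverse of protein-coding genes, of which 568 of 13115 rose and 1112 fell.

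**Figure D5:**
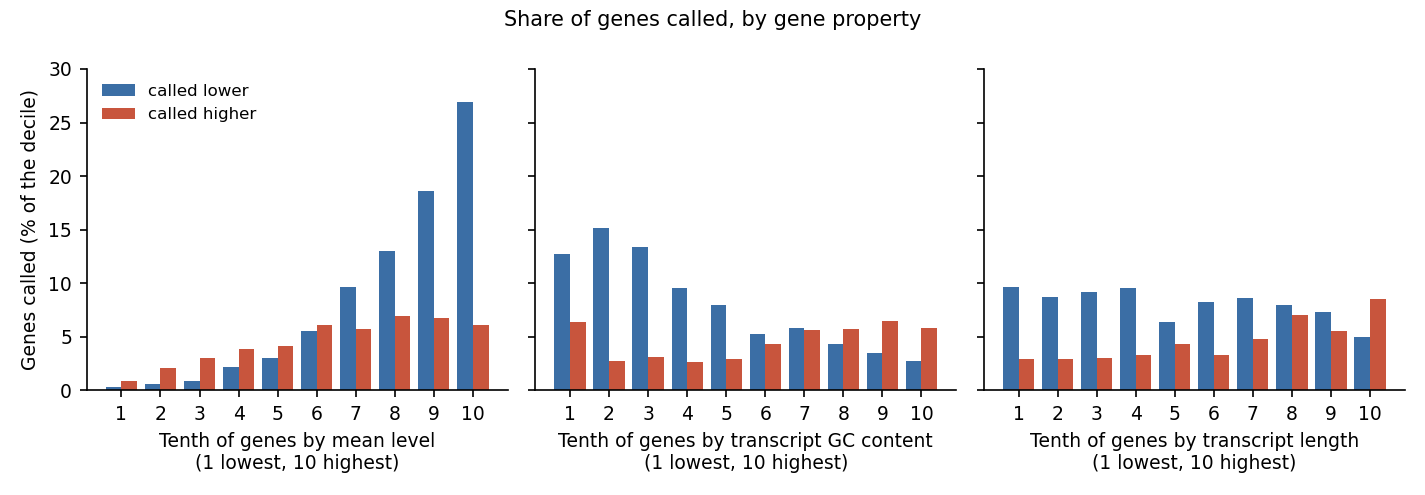
Percent of genes called lower (blue) and higher (red) in KO in each decile of the genes by mean level, transcript GC content and transcript length. Lower calls go from 0.353% to 26.9% from the lowest to the highest decile of mean level and are 2.75% in the decile of highest GC content.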

How the data were processed

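Spleen suspensions were filtered, red cells lysed, and strand-specific libraries made from total RNA, per the labels' protocols. The deposited values are a normalized signal: estimated counts from kallisto 0.44.0 on GRCm38 divided by DESeq size factors, per the submitters' processing notes. Whole reads could not be recovered from them, so no count model was used. Genes averaging 10 or more over the 8 libraries were tested on log2(value + 1) with limma 3.58.1 (lmFit, eBayes with trend, R 4.3.3) and Benjamini-Hochberg adjustment over 14184 genes, at 0.05. The pseudocount of 1 understates changes of low genes. The fit was checked on simulated data. The 20 alternatives covered pseudocount, filter, scaling, variance model, a replicate block, removal of trends (mgcv 1.9.3) and left-out libraries.

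The genes and lists were chosen with earlier results of these data known. Named were Acly, its neighbours, the 12 leading genes in each direction by the rule above and the 4 members of each list with the smallest adjusted p. Some of these are not reported here. Other genes, such as members with the ER stress element, Notch1, Myc, Fasn and Slc25a1, were picked with their values in view, and Minos1 was likewise moved from the ATP synthase to the import list. Promoter windows came from RefSeq (GRCm38.p6) for 10490 genes, 164 of them matched through synonyms.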

Additional observations from a re-analysis of the deposited data

Results flagged for a closer look

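In 21 of 398 groups of 4 libraries, over the genes named here and the summed lists, 1 library lay far from the other 3, with a gap to the nearest, as a share of the range, above Dixon's 95% critical value. Chance flags about 1 in 20 groups. Values are normalized counts unless a percent is given. Acaca was at 1927 in WT replicate 4, above the 1201 to 1283 of the other WT libraries. For Cd4, KO replicate 4 (215) lay below the others of its group (483 to 532). Dld was at 882 in WT replicate 1, below the 965 to 981 of the other WT libraries. For Dnaja2, KO replicate 2 (1077) lay above the others of its group (897 to 918). Hsp90aa1 was at 3122 in KO replicate 3, below the 4493 to 4684 of the other KO libraries. For Idh3a, WT replicate 4 (911) lay above the others of its group (759.9 to 775). Kat2a was at 274 in WT replicate 3, above the 225 to 231 of the other WT libraries. For Minos1, KO replicate 1 (174) lay above the others of its group (93.4 to 106). Mrpl27 was at 449 in KO replicate 2, above the 315 to 329 of the other KO libraries. For Pecam1, WT replicate 1 (567) lay below the others of its group (667 to 684). Psmb8 was at 238 in WT replicate 2, below the 298 to 302 of the other WT libraries. For Rpl39, WT replicate 1 (2680.0) lay below the others of its group (4232 to 4476). Spcs1 was at 188 in KO replicate 3, above the 146 to 152 of the other KO libraries. For Taf9b, WT replicate 3 (257) lay below the others of its group (326 to 331). Tet2 was at 326 in WT replicate 1, above the 235 to 250.5 of the other WT libraries. For Tmem129, KO replicate 1 (114) lay above the others of its group (39.8 to 48.2). Tnfrsf10b was at 391 in KO replicate 2, above the 256 to 271 of the other KO libraries. For Trp53inp1, KO replicate 2 (5955) lay below the others of its group (8254 to 8601). Vasn was at 70.6 in WT replicate 2, above the 27.9 to 33 of the other WT libraries. For the summed pentose phosphate pathway, WT replicate 4 (107%) lay above the others of its group (97.4% to 98.3%). The summed splicing list was at 87.2% in KO replicate 1, above the 78.8% to 80% of the other KO libraries.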

How the results depend on the processing

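Of the calls, 105 higher and 295 lower held under all 20 alternatives, and 254 and 596 whichever library was left out. Without the mean-variance trend there were 693 calls (286 higher, 407 lower; lower calls were 4 for glycolysis, 1 for nucleotide metabolism and 17 for histones, and chromatin enzymes had 0 higher calls), and without KO replicates 1 and 2, an alternative that leaves fewer samples, 903 (232 and 671). Of the named genes 55 lost their call without the mean-variance trend, more than in any other alternative (41 without KO replicates 1 and 2). Among them were Srebf1, Tet2, Kdm3b, Ltf, Lyz2, Slc16a1, Aldoa, Hspa5, Calr, Hsp90aa1 and Hemgn. Removing the trends over length, GC content and level left 648 lower calls. With 1 library left out there were 983 to 1634 calls, 335 to 559 higher and 648 to 1092 lower. Quantile normalization gave 746 higher and 832 lower, so 52.7% of calls were lower, and without KO replicates 1 and 2 74.3% were. Some values that had missed the threshold changed sign. Acss2 was at 0.017 without KO replicates 1 and 2 and at -0.12 to 0.090 with 1 library left out (above 0 without WT replicate 3 or 4 or KO replicate 2). Fasn was at 0.080 after quantile normalization, 0.0049 without KO replicates 1 and 2, and -0.17 to 0.020 with 1 library left out (above 0 without WT replicate 1). Creld2 was at -0.028 without KO replicates 1 and 2. Myc was at 0.0036 after quantile normalization and 0.027 with the trends removed, and Trbv2 at 0.11 with the trends removed. The cause was not tested. Deviations of same-numbered replicates from their group means had correlations of -0.029 to 0.0065. Such values cannot decide whether replicate numbers pair the samples, for example by a shared leukemia. With the replicate block 1391 genes were called, 459 higher and 932 lower. The 4 libraries per group limit what could be called, and the read depth behind single values is not known.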

Other observations

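By chromosome, the 452 measured genes of the X chromosome had 17.0% lower and 2.65% higher calls and a median of -0.17. On chromosome 7, 4.26% of genes were lower and 6.61% higher. Over all genes the shares were 8.07% and 4.58%. Trbv26, the leading T-cell receptor beta segment, had normalized counts of 1266, 1533, 1590.4 and 1867 in WT and 801, 413, 895 and 908 in KO, with no overlap. The T-cell receptor constant genes were lower in 4 of 7 cases and higher in 0.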
